A study of Drosophila melanogaster with 20 samples.

Results

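The RNA of female heads was compared between white-eyed and red-eyed flies, w- females against w+ females, across single genes and groups of genes other than *white* (*w*) itself. The comparison used 10 of the 20 samples of the series, 5 of w- females and 5 of w+ females, each a pool of 10 heads from 1-week-old unmated flies. Of the 17609 genes in the count table, 10762 had at least 10 counts in at least 3 of these 10 samples and were tested. Both groups came from 1 cross in the w1118 background, which carries a partial deletion of *w*. The w+ females carried 1 copy of a wild-type *w* that had been brought from the Harwich strain by 10 generations of backcrossing, and the w- females were their sisters without it. DNA that lay beside *w* in the Harwich line can have come along with it, so an effect of *w* and an effect of linked DNA cannot be told apart here. The numbers 1 to 5 name the samples of a group, and nothing in the labels says whether samples of a group came from separate cultures. The main test takes the number as a block, so its p-values measure how the difference between w- and w+ pools spreads over the numbers. In fits with no block the p-values measure the spread between the pools of a group.

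*white* encodes an ABC transporter that pairs with the products of *brown* (*bw*) and *scarlet* (*st*) to carry pigment precursors into the granules of eye cells. The pair with Brown serves the red pteridine pigments, which are made from GTP, and the pair with Scarlet serves the brown ommochromes, which are made from tryptophan. A fly head holds the compound eyes with their photoreceptors and pigment cells, the brain with its glia, the antennae, a layer of fat body, muscles of the mouthparts, blood cells, tracheae and a covering of cuticle, and its RNA is a sum over all of these.

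The labels held. *w* (FBgn0003996, X chromosome from 2790599 to 2796466, minus strand, BDGP6.54) had 481 to 688 counts in each w+ library and 4 to 15 in each w- library (log2 fold change -6.03, standard error 0.23, edgeR adjusted p = 4.4e-04). Head markers were high in all 10 libraries, with the opsin gene *ninaE* at 21400 CPM (counts scaled to a common library size) or more and the synaptic gene *nSyb* at 1090 CPM or more. None of 18 markers of the male reproductive tract and 6 of 18 ovary markers passed the count filter, and no ovary marker had more than 116 counts. Between 34.2 and 47.1 M reads per library were counted on genes, with means and SDs of 42.4 ± 3.84 M for the 5 w+ and 38.0 ± 2.45 M for the 5 w- libraries (p = 0.079 by an exact permutation test, two-sided). A count of 3 in these libraries stands for 0.0636 to 0.0877 CPM. Levels below are CPM after TMM normalization unless another scale is named.

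A set of 3 libraries stood apart from the other 7, 1 of w+ and 2 of w- females. On the first principal component, with 44.6% of the variance, w+ females 4, w- females 1 and w- females 3 had scores of 40.7, 24.1 and 47.8, and the other 7 libraries lay between -17.9 and -14.3. The 20 genes with the most weight there were at 3.64 CPM or less in the 7 libraries. The mucin gene *Muc68D* was at 0.050 CPM or less in them and at 818, 142 and 1729 CPM in the 3, and the antibacterial peptide gene *DptA* was at 0.42 to 3.64 CPM in them and at 736, 169 and 492 CPM in the 3. Neither gene was called. The second component, with 23.2%, separated the groups, with w+ females 5 (-5.36) closest to the w- libraries, of which w- females 4 (-5.87) was the nearest. Of 22 gut markers 3 passed the filter. The digestive protease gene *Jon65Aiii* did not, but it reached 1200 counts (32.3 CPM of the library total) in w- females 3, a library of this set. In the w+ libraries, w+ females 4 among them, it was at 0.17 CPM or less. What these libraries hold in common was not tested. The results below were therefore also computed without these 3 libraries, as 4 w+ against 3 w- libraries with no replicate block. With counts scaled by library size alone the median log2 fold change of all genes tested was 0.14 in place of -0.0036, so a list whose median lies a little below 0 can cross 0 under that scaling. Such a list is marked where it is named only if it had a called member and its median moved by more than its SD over the replicate pairs.

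A gene is called where edgeR's quasi-likelihood test, with the replicate number as a block, gave a Benjamini-Hochberg adjusted p under 0.05 over all 10762 genes. Of these genes 993 were called (9.23%), 508 higher (4.72%) and 485 lower (4.51%) in w- females. An unadjusted p under 0.05 was reached by 3455 of the 10762 genes. List counts at that cut with all 10 libraries are to be read beside this number. For the fit without the 3 libraries no such number over all genes is given. List counts at that cut there therefore have no background share beside them, and do not show that a list changed more than other genes. Most changes were small. The median absolute log2 fold change of the called genes was 0.34, 726 of them changed by less than 0.5 on the log2 scale and 79 by at least 1, of which 47 rose and 32 fell. In 479 of the 993 the values of the 5 w- and the 5 w+ libraries did not overlap, which was the case for 6.77% of all genes tested. Without the 3 libraries 122 of 10622 genes were called (1.15%), 90 higher (0.847%) and 32 lower (0.301%), and 110 of these were among the 993. All 991 of the called genes that could be fitted without the 3 libraries kept their direction there. The 7 libraries are among the 10 that picked these genes, and 991 of the 993 had the same direction in all 5 pairs. The kept direction is therefore not an independent check.

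**Figure D1:**
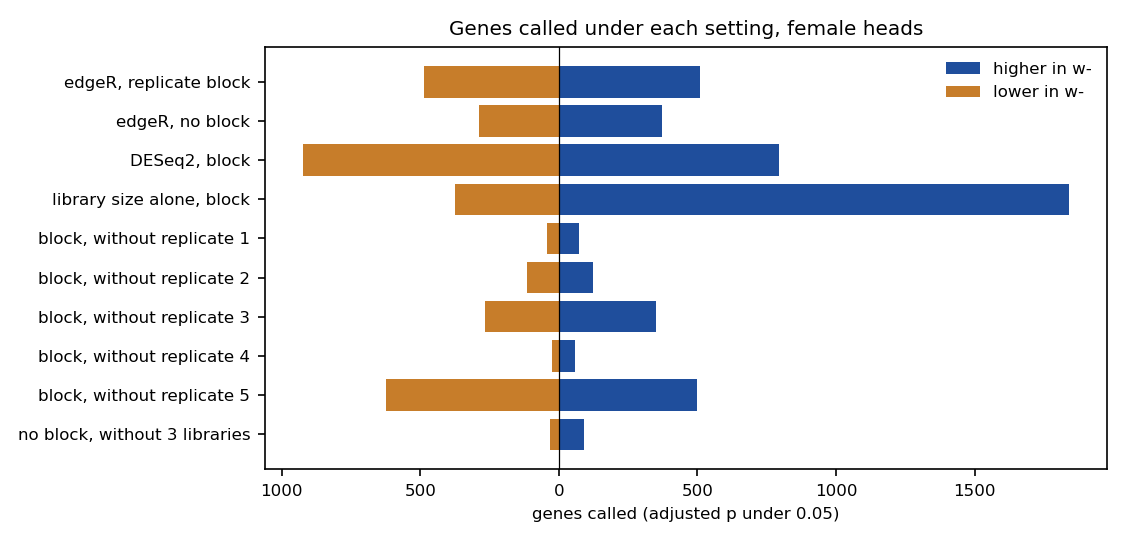
Number of genes called in female heads under each setting, with bars to the right for genes higher and to the left for genes lower in w- females. The count is 993 with edgeR and the replicate block, 659 with no block, 1715 with DESeq2, and between 82 and 1121 with 1 replicate number left out.

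The clearest rises were in genes of the cuticle and in a few genes with little or no annotation. *Vajk4*, of a small family of cuticle proteins, measured 2.43, 1.77, 2.1, 2.24 and 2.4 CPM in w+ females 1 to 5 and 12.6, 10.5, 11.2, 11 and 10.7 CPM in w- females 1 to 5. Every w- library was far above the highest w+ library, and the gene had the smallest p of all genes (log2 fold change 2.36, standard error 0.074, edgeR adjusted p = 1.2e-04). *Cpr49Ag*, which encodes a chitin-binding cuticle protein, measured 26.1, 27.4, 24.6, 23 and 29.8 CPM in w+ females 1 to 5 and 61.4, 64.9, 66.5, 60.1 and 62.9 CPM in w- females 1 to 5. The groups lay far apart with little spread in either (log2 fold change 1.27, standard error 0.056, edgeR adjusted p = 4.4e-04). *CG13071*, a protein-coding gene with no name, rose from 1.05 ± 0.23 to 6.63 ± 0.336 CPM as means and SDs over 5 libraries (log2 fold change 2.67, standard error 0.14, edgeR adjusted p = 6.2e-04), and FBgn0289578, which the annotation used here does not name, rose from 54.4 ± 2.6 to 114 ± 9.88 CPM (log2 fold change 1.06, standard error 0.053, edgeR adjusted p = 6.2e-04). These 4 genes were also called without the 3 libraries, with log2 fold changes of 2.30, 1.21, 2.59 and 1.11.

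**Figure D2:**
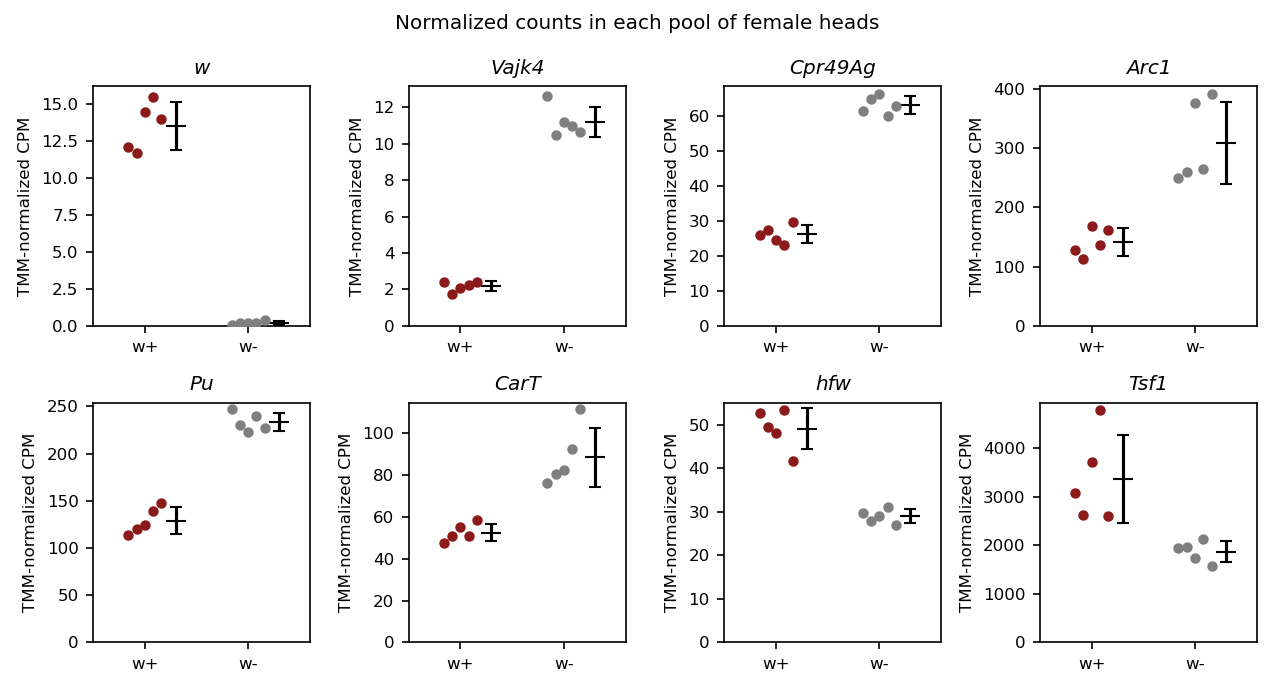
Normalized counts (CPM) of 8 genes in each of the 5 pools of w+ (red) and 5 pools of w- (gray) female heads, with the mean and SD as a bar beside the points. In all 8 genes the groups do not overlap. *w*, *hfw* and *Tsf1* are lower and the other 5 higher in w- females.

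Among the cuticle genes as a group, 10 of 37 genes of the Cpr family rose and 0 fell, with a median log2 fold change of 0.22 beside -0.0036 over all genes tested. *Cpr49Ae* (log2 fold change 0.77, standard error 0.10, edgeR adjusted p = 0.017), *Cpr49Af* (log2 fold change 1.11, edgeR adjusted p = 0.03) and *Cpr49Ag* are neighbours on chromosome 2R, 0.824 and 0.748 kb from each other, and *Cpr62Bb* (log2 fold change 0.84, edgeR adjusted p = 0.012) and *Cpr62Bc* (log2 fold change 1.12, edgeR adjusted p = 0.013) lie 5.12 kb apart on 3L. In these 5 genes the groups did not overlap. The 2 most abundant members of the family, *Cpr72Ec* and *Cpr65Au*, did not pass the test. Of 14 genes of the Vajk, Tweedle and retinin-like families 5 rose and 1 fell (median 0.30). *Vajk1* rose from 1.13 ± 0.476 to 4.49 ± 0.656 CPM (log2 fold change 2.04, standard error 0.30, edgeR adjusted p = 0.022), *retinin*, which encodes a protein of the corneal lens, rose (log2 fold change 0.30, edgeR adjusted p = 0.05), and *TwdlG* fell (log2 fold change -0.29, edgeR adjusted p = 0.029). *CG13046*, of the same families, had 9 counts over all w+ libraries and 229 over all w- libraries. Without the 3 libraries 4 Cpr genes and 3 of the other families were called, all higher.

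Genes that act on chitin or line the tracheae gave a mixed picture. The chitinase gene *Cht7* rose (log2 fold change 0.67, standard error 0.075, edgeR adjusted p = 0.0079), as did *verm*, which encodes a chitin deacetylase (log2 fold change 0.59, edgeR adjusted p = 0.037), and *Gasp*, a chitin-binding protein of tracheae (log2 fold change 0.65, standard error 0.062, edgeR adjusted p = 0.0042). Members of the Idgf family, secreted relatives of chitinases that act as growth factors, fell. These were *Idgf2* (log2 fold change -0.25, edgeR adjusted p = 0.045), *Idgf4* (log2 fold change -0.27, edgeR adjusted p = 0.037), *Idgf5* (log2 fold change -0.91, edgeR adjusted p = 0.036) and *Idgf6* (log2 fold change -0.57, edgeR adjusted p = 0.027). Of 31 chitin genes 2 rose and 4 fell, and of 8 tracheal markers 2 rose. *Gasp* was the only one of these genes that was also called without the 3 libraries.

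Genes of protein synthesis were lower in w- females. All 81 cytosolic ribosomal protein genes tested had a log2 fold change below 0, with a median of -0.48, and 19 of them passed the test with edgeR and 78 with DESeq2. The summed level of these genes was 64640, 70680, 57330, 77230 and 45520 CPM in w+ females 1 to 5 and 42730, 39400, 48290, 51040 and 43920 CPM in w- females 1 to 5. The ranges overlapped through w+ females 5, which was lower than the other 4 w+ libraries and than w- females 3 and 4. The summed fat body markers, given below, were also highest in w+ females 4 and lowest among w+ libraries in w+ females 5. Among w- libraries both sums were highest in w- females 4, while the lowest was w- females 2 here and w- females 5 for the markers. The part of fat body in the fall of these genes was not tested. *RpL5*, a protein of the large subunit, measured 1951, 2103, 1814, 2266 and 1408 CPM in w+ females 1 to 5 and 1297, 1198, 1416, 1485 and 1313 CPM in w- females 1 to 5 (log2 fold change -0.49, standard error 0.11, edgeR adjusted p = 0.04). Of 33 translation factors 17 fell and 0 rose (median -0.26). They include the elongation factors *eEF1alpha1* (from 8199 ± 1981 to 5263 ± 728 CPM, log2 fold change -0.61, standard error 0.15, edgeR adjusted p = 0.0495) and *eEF2* (log2 fold change -0.50, edgeR adjusted p = 0.034) and the helicase *eIF4A* (log2 fold change -0.40, edgeR adjusted p = 0.033). The complex eIF3, which brings mRNA to the small subunit, contributed 8 of the 17, among them *eIF3k*, in which the groups did not overlap (log2 fold change -0.36, standard error 0.043, edgeR adjusted p = 0.0096).

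Of 61 genes of ribosome biogenesis and the nucleolus 14 fell and 0 rose (median -0.21), with *Non1*, a nucleolar GTPase, from 546 ± 108 to 346 ± 17.3 CPM (log2 fold change -0.63, standard error 0.12, edgeR adjusted p = 0.036). Genes of the mitochondrial ribosome moved less, with 4 of 72 lower and a median of -0.10 that was above 0 (0.037) with library size alone. Small nucleolar RNAs and their host genes had a median of -0.23 with 2 of 34 called. Without the 3 libraries the medians were -0.42 for the cytosolic ribosomal proteins, -0.25 for the translation factors and -0.26 for ribosome biogenesis, with 0, 1 and 1 members called by edgeR and 72, 18 and 16 lower at an unadjusted p under 0.05. The 2 that were still called are *eIF3k* (log2 fold change -0.32) and *CG3071* (-0.84), a gene near *w* on the X chromosome.

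**Figure D3:**
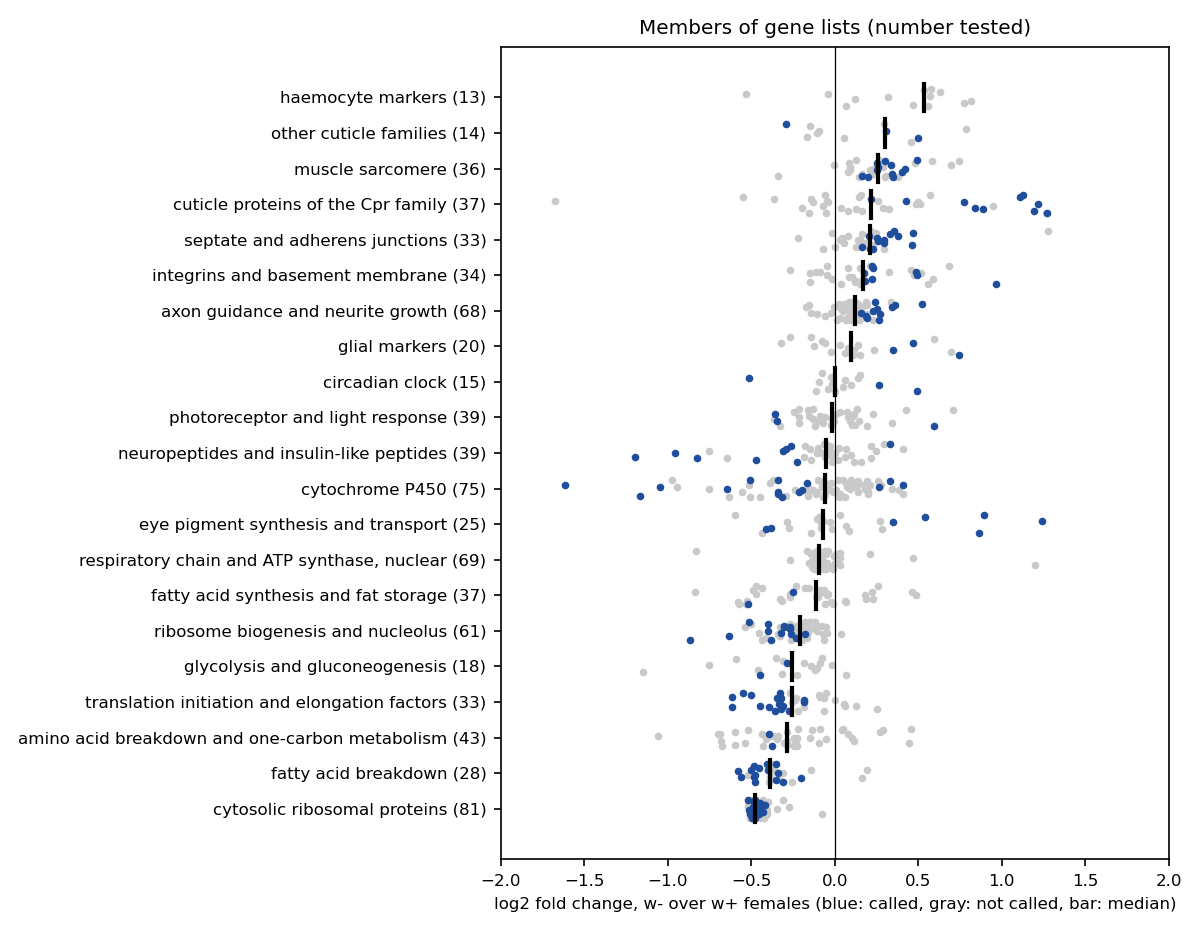
Log2 fold changes (w- over w+ females) of the members of 21 gene lists, ordered by their median (black bar), with called genes in blue and genes not called in gray. The cytosolic ribosomal proteins have a median of -0.48, and 5 members beyond 2 log2 units are outside the axis.

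Genes of fatty acid breakdown were lower as well. Of 28 genes of fatty acid breakdown 15 fell and none rose, with a median log2 fold change of -0.39. The summed level was 2978, 3220, 2688, 3835 and 2129 CPM in w+ females 1 to 5 and 2214, 1976, 2274, 2672 and 2005 CPM in w- females 1 to 5. The lowest w+ library, w+ females 5, lay within the range of the w- libraries. The summed level of 8 fat body markers was 21380, 20340, 14750, 23880 and 11520 CPM in w+ females 1 to 5 and 11920, 7766, 12070, 13920 and 7364 CPM in w- females 1 to 5, and w+ females 5 was the lowest w+ library there too. The part of fat body in the fall of this list was not tested. *Etfb* and *wal* encode the subunits of the electron transfer flavoprotein, which takes up electrons from the acyl-CoA dehydrogenases, and had log2 fold changes of -0.58 (edgeR adjusted p = 0.032) and -0.48 (edgeR adjusted p = 0.029). *Mcad*, a medium-chain acyl-CoA dehydrogenase, fell from 308 ± 91.8 to 204 ± 30.4 CPM (log2 fold change -0.56, standard error 0.13, edgeR adjusted p = 0.0498), and *Echs1*, an enoyl-CoA hydratase (log2 fold change -0.50, edgeR adjusted p = 0.027), and *CPT2*, of the carnitine shuttle (log2 fold change -0.35, edgeR adjusted p = 0.037), fell with it. Their groups overlapped in every case. In the other 7 libraries the median of the list was -0.34 and edgeR called no member, with 9 lower and 1 higher at an unadjusted p under 0.05, and with all 10 libraries and no block, where 6.12% of all genes were called, 3 members were called lower.

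With edgeR the remaining metabolic lists had called shares of 4.65% to 11.1%, near the 9.23% of all genes, and every member called was lower. These were 2 of 37 genes of fatty acid synthesis and storage (median -0.12), 2 of 18 of glycolysis (median -0.26), 1 of 17 of glycogen and sugar metabolism (median -0.16), 2 of 23 of the tricarboxylic acid cycle (median -0.011) and 2 of 43 of amino acid and one-carbon metabolism (median -0.28). DESeq2 called 10, 8, 7, 7 and 12 members of these lists lower and 0, 0, 0, 0 and 1 higher. Over all 10762 genes it called 922 lower and 793 higher. At an unadjusted p under 0.05 edgeR had 13, 10, 8, 10 and 18 members lower and 2, 0, 0, 0 and 2 higher. When the 3 libraries were left out edgeR called 0, 0, 1, 0 and 0 members of these lists, with 4, 1, 2, 0 and 3 lower at an unadjusted p under 0.05. With library size alone the medians of fatty acid synthesis (0.025) and of the tricarboxylic acid cycle (0.13) were above 0. The named examples are the lipase gene *Lip4* (log2 fold change -0.52, edgeR adjusted p = 0.017), lactate dehydrogenase *Ldh* (log2 fold change -0.45, edgeR adjusted p = 0.043) and the NADPH-forming isocitrate dehydrogenase *Idh* (log2 fold change -0.30, edgeR adjusted p = 0.03). Of 69 nuclear genes of the respiratory chain and ATP synthase none was called by edgeR or DESeq2 (median -0.10). With no called member, this list could not be marked for a median that crosses 0 with library size alone. In this list 22 had an unadjusted p under 0.05, about the share of all genes (3455 of 10762). Of the 22, 21 were lower and 1 was higher, and 61 of the 69 members were below 0. Of the 13 protein genes in the mitochondrial genome 2 fell (15.4%), *mt:ND2* (log2 fold change -0.27, edgeR adjusted p = 0.039) and *mt:ATPase8* (log2 fold change -0.89, edgeR adjusted p = 0.022), whose coding sequence overlaps that of its neighbour *mt:ATPase6*. All 13 were below 0 (median -0.22), with 9 lower and none higher at an unadjusted p under 0.05 by edgeR. Without the 3 libraries edgeR called none of the 13, with 3 lower at that cut.

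Markers of the fat body also had lower levels in w- females, 2 of 8 past the test. *Tsf1*, the iron carrier transferrin made by fat body, measured 3074, 2627, 3716, 4780 and 2609 CPM in w+ females 1 to 5 and 1948, 1955, 1742, 2138 and 1575 CPM in w- females 1 to 5. Each w- library was below each w+ library (log2 fold change -0.81, standard error 0.12, edgeR adjusted p = 0.02). All 8 fat body markers tested were below 0 (median -0.55), of which *Tsf1* and *Lip4* passed the test. In the other 7 libraries neither was called (edgeR adjusted p = 0.1 and 0.077), with 2 markers lower at an unadjusted p under 0.05, and the highest w+ values of *Tsf1* and of the summed markers came from w+ females 4, a library that stood apart. The most abundant of them, *apolpp* and the storage protein gene *Lsp2*, had log2 fold changes of -0.57 (edgeR adjusted p = 0.11) and -1.31 (edgeR adjusted p = 0.077) and were not called. The yolk protein genes, which fat body in the head also expresses, were not called either, with *Yp1* between 21100 and 39200 CPM of the library total in w- and between 25600 and 61600 in w+ females. All 4 members of the list of yolk and female head fat genes were below 0 (median -0.69). At an unadjusted p under 0.05 edgeR had 3 of them lower, and DESeq2 called 1 lower. In the other 7 libraries none was lower at that cut (median -0.63). In pooled heads fewer cells of a type and less RNA per cell cannot be told apart. This holds here for fat body, above for the lists of protein synthesis and fatty acid breakdown, and below for muscle and other tissues.

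Genes of striated muscle were higher in w- females. Of 36 sarcomere genes 12 rose, none fell and 34 were above 0, with a median log2 fold change of 0.26. The summed level was 11760, 11580, 13610, 12320 and 14090 CPM in w+ females 1 to 5 and 15710, 15270, 15910, 14740 and 15400 CPM in w- females 1 to 5. Every w- library was above every w+ library. The myosin heavy chain gene *Mhc* measured 1531, 1568, 2005, 1450 and 1950 CPM in w+ females 1 to 5 and 2372, 2342, 2276, 2035 and 2249 CPM in w- females 1 to 5 (log2 fold change 0.42, standard error 0.089, edgeR adjusted p = 0.04). The muscle actin *Act57B* (log2 fold change 0.35, edgeR adjusted p = 0.013), the myosin light chain *Mlc2* (log2 fold change 0.49, edgeR adjusted p = 0.023), troponin T (*up*, log2 fold change 0.40, edgeR adjusted p = 0.022), tropomyosin (*Tm2*, log2 fold change 0.34, edgeR adjusted p = 0.022), paramyosin (*Prm*, log2 fold change 0.34, edgeR adjusted p = 0.027) and the calcium pump *SERCA* (log2 fold change 0.30, edgeR adjusted p = 0.038) rose with it, and in all of them the groups did not overlap. With those libraries left out the median was 0.21 and edgeR called no member, with 16 higher at an unadjusted p under 0.05, and in male heads, fitted alone, it was 0.031.

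Genes that hold epithelial and glial cells together, and genes of the matrix, rose in a similar range. Of 33 genes of septate and adherens junctions 13 rose and none fell (median 0.21), among them gliotactin (*Gli*, log2 fold change 0.47, edgeR adjusted p = 0.031), the septate junction proteins *Mcr* (log2 fold change 0.38, edgeR adjusted p = 0.027) and *pck* (log2 fold change 0.23, edgeR adjusted p = 0.018) and the polarity gene *crb* (log2 fold change 0.29, edgeR adjusted p = 0.027). Of 34 genes of integrins and basement membrane 8 rose and none fell (median 0.17). *Loxl2*, a lysyl oxidase that cross-links matrix proteins, measured 14.3, 16.2, 17.5, 20.1 and 18.7 CPM in w+ females 1 to 5 and 27.9, 36.9, 33.1, 34.2 and 37 CPM in w- females 1 to 5 (log2 fold change 0.96, standard error 0.06, edgeR adjusted p = 8.8e-04). *Vinc*, the adhesion protein vinculin, rose from 142 ± 9.4 to 199.7 ± 19.1 CPM (log2 fold change 0.49, standard error 0.035, edgeR adjusted p = 0.0015), and its gene lies on the X chromosome near *w*. The integrin beta subunit *mys* (log2 fold change 0.22, edgeR adjusted p = 0.03) and the matrix receptor *Dg* (log2 fold change 0.23, edgeR adjusted p = 0.039) changed less. Of 68 genes of axon guidance and neurite growth 11 rose and none fell (median 0.12), with *trn* (log2 fold change 0.34, edgeR adjusted p = 0.01), the metalloprotease *kuz* (log2 fold change 0.27, edgeR adjusted p = 0.009) and the adhesion gene *Fas2* (log2 fold change 0.25, edgeR adjusted p = 0.036) as examples. Without the 3 libraries edgeR called 0 junction genes, 0 guidance genes and 5 matrix genes, with 14, 10 and 14 higher at an unadjusted p under 0.05. The matrix genes were *Loxl2*, *Vinc*, *Ppn*, *Col4a1* and *vkg*.

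Collagen IV (*Col4a1* and *vkg*) and papilin (*Ppn*) are made largely by blood cells and fat body, and they had log2 fold changes of 0.52 (edgeR adjusted p = 0.077), 0.48 (edgeR adjusted p = 0.099) and 0.56 (edgeR adjusted p = 0.056) with all 10 libraries, so they were not called there. Of the blood cell markers 11 of 13 were above 0 with a median of 0.53, and none was called by edgeR, with 7 higher at an unadjusted p under 0.05 and 7 called higher by DESeq2. *Hml*, hemolectin of plasmatocytes, measured 159.9, 139.7, 181, 151 and 155 CPM in w+ females 1 to 5 and 290.1, 306, 167, 224 and 206 CPM in w- females 1 to 5. Of the w- libraries only w- females 3 lay within the range of the w+ libraries (log2 fold change 0.57, standard error 0.18, edgeR adjusted p = 0.096). With no block 3 blood cell markers were called higher, and without the 3 libraries 2, *Ppn* and the prophenoloxidase gene *PPO2* (log2 fold change 1.27, edgeR adjusted p = 0.036). The part of blood cells in the matrix genes was not tested.

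Enzymes and transporters of the eye pigments changed in both directions. Of 25 genes 5 rose and 2 fell (median -0.069, and 0.071 with library size alone). *Punch* (*Pu*), the GTP cyclohydrolase that opens the pteridine pathway, measured 113, 121, 125, 139.8 and 147 CPM in w+ females 1 to 5 and 248, 230.1, 223, 239.7 and 228 CPM in w- females 1 to 5. No w- library came near the w+ range (log2 fold change 0.86, standard error 0.071, edgeR adjusted p = 0.0027). *sepia* (*se*), an enzyme on the way to the red drosopterins, measured 19.8, 20, 23.6, 19.5 and 23.9 CPM in w+ females 1 to 5 and 56.5, 56.7, 47.2, 47.1 and 44.9 CPM in w- females 1 to 5, again with the groups well apart (log2 fold change 1.24, standard error 0.10, edgeR adjusted p = 0.0036). *purple* (*pr*), which encodes the next enzyme after Punch, was not on the list and was taken up after its values were seen. It rose from 68.1 ± 1.13 to 101 ± 3.94 CPM with very little spread (log2 fold change 0.56, standard error 0.036, edgeR adjusted p = 9.1e-04). *bw*, the partner of *w* for pteridines, rose (log2 fold change 0.54, edgeR adjusted p = 0.0495), and *st*, the partner for ommochromes, had a log2 fold change of 0.28 (edgeR adjusted p = 0.11) and was not called. *cardinal* (*cd*), a peroxidase of the ommochrome pathway, rose from 6.56 ± 1.18 to 12.1 ± 1.43 CPM (log2 fold change 0.89, edgeR adjusted p = 0.027), as did *kar* (log2 fold change 0.35, edgeR adjusted p = 0.034). *vermilion* (*v*), the tryptophan oxygenase at the start of the ommochrome pathway, had a log2 fold change of -0.60 (edgeR adjusted p = 0.1) and *Henna* (*Hn*), the phenylalanine hydroxylase, a value of -0.44 (edgeR adjusted p = 0.0511), and neither was called.

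The pigment genes that fell act in other steps. *dor*, a subunit of the complex that fuses vesicles with lysosomes and pigment granules, fell from 24.3 ± 0.773 to 18.7 ± 0.547 CPM (log2 fold change -0.38, standard error 0.037, edgeR adjusted p = 0.0044), and *prune* (*pn*) fell (log2 fold change -0.41, edgeR adjusted p = 0.038). Both lie on the X chromosome, at -1.13 and -0.61 Mb from *w*. *Pu*, *se*, *pr* and *dor* were also called without the 3 libraries, with log2 fold changes of 0.88, 1.18, 0.55 and -0.40, and *bw*, *cd*, *kar* and *pn* were not.

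Genes of phototransduction were called about as often as all genes (7.69% beside 9.23%). Of 39 photoreceptor genes 1 rose and 2 fell (median -0.014, and 0.13 with library size alone). The gene that rose was *trpl*, a cation channel of the photoreceptor membrane that moves with light, at 2305, 2575, 2515, 1880 and 2800 CPM in w+ females 1 to 5 and 3054, 3602, 3390, 3786 and 4400 CPM in w- females 1 to 5. All w- libraries were above all w+ libraries (log2 fold change 0.60, standard error 0.10, edgeR adjusted p = 0.029, without the 3 libraries 0.62, edgeR adjusted p = 0.043). *Gbeta76C*, the beta subunit of the visual G protein, fell (log2 fold change -0.34, edgeR adjusted p = 0.041), as did *inaF-B*, which the TRP channel needs (log2 fold change -0.36, edgeR adjusted p = 0.037). The opsin gene *ninaE* had a log2 fold change of -0.22 (edgeR adjusted p = 0.15) and was not called.

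Photoreceptors signal with histamine, which glia take up and join to beta-alanine, and which photoreceptors recover from the product carcinine. *CarT*, the carcinine transporter, measured 47.7, 50.8, 55.4, 50.7 and 58.5 CPM in w+ females 1 to 5 and 76.1, 80.7, 82.5, 92.4 and 112 CPM in w- females 1 to 5. The groups did not overlap (log2 fold change 0.74, standard error 0.059, edgeR adjusted p = 0.0025, without the 3 libraries 0.84 and 0.015). *tan* (*t*), the hydrolase that frees histamine from carcinine, measured 358, 376, 363, 379.8 and 345 CPM in w+ females 1 to 5 and 319, 304, 253, 235 and 232 CPM in w- females 1 to 5 and thus went the other way (log2 fold change -0.45, standard error 0.081, edgeR adjusted p = 0.03). *tan* was on no list and was taken up after its values were seen, and without the 3 libraries its adjusted p was 0.079. *ebony* (*e*), which makes carcinine in glia, and *black* (*b*), which makes beta-alanine, had log2 fold changes of 0.59 (edgeR adjusted p = 0.14) and 0.55 (edgeR adjusted p = 0.12) and were not called. *CarT* had been placed among 20 glial markers, of which it, *Gli* and the transporter gene *ine* (log2 fold change 0.35, edgeR adjusted p = 0.0486) rose and none fell.

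Among the activity-regulated genes *Arc1* had the smallest p. It is an activity-regulated gene whose product forms capsids that carry RNA, and it measured 129, 113, 169, 136 and 162 CPM in w+ females 1 to 5 and 249.7, 259, 376, 265 and 391 CPM in w- females 1 to 5. The lowest w- library was well above the highest w+ library (log2 fold change 1.11, standard error 0.059, edgeR adjusted p = 6.2e-04). In the other 7 libraries its log2 fold change was 1.09 (edgeR adjusted p = 0.0501). Its relative *Arc2* had a log2 fold change of 0.35 (edgeR adjusted p = 0.077), and of 12 activity-regulated genes 1 rose and 1 fell. Markers of neurons and synapses were nearly level, with 1 of 26 called, the serotonin transporter gene *SerT* (log2 fold change 0.22, edgeR adjusted p = 0.03), and a median of 0.094. Of 43 odorant receptors 1 was called (median 0.17), and of 41 gustatory and ionotropic receptors edgeR and DESeq2 called none (median 0.0036), with 3 at an unadjusted p under 0.05. Among 32 odorant-binding protein genes 1 rose and 2 fell (9.38%, near the 9.23% of all genes), of which *Obp99c* changed most (log2 fold change -0.83, edgeR adjusted p = 0.047). The median of this list, -0.00076, was 0.14 with library size alone.

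Of 39 genes of neuropeptides and insulin-like peptides 8 fell and 1 rose (median -0.055, and 0.085 with library size alone). The insulin-like peptides of the brain, *Ilp2*, *Ilp3* and *Ilp5*, had log2 fold changes of -0.31 (edgeR adjusted p = 0.029), -1.20 (edgeR adjusted p = 0.022) and -0.47 (edgeR adjusted p = 0.0488). *Ilp3* measured 15.6, 6.64, 10.5, 6.52 and 17.4 CPM in w+ females 1 to 5 and 8.76, 4.23, 3.51, 2.85 and 5.26 CPM in w- females 1 to 5. The w- values were lower in each replicate number, while the groups overlapped, and with no block *Ilp3* was not called (edgeR adjusted p = 0.088). *Ilp6*, the insulin-like peptide of fat body, fell from 67.5 ± 17.5 to 37.7 ± 7.23 CPM (log2 fold change -0.83, standard error 0.14, edgeR adjusted p = 0.03) with no overlap, and its gene lies at -0.46 Mb from *w*. *CCHa2*, a peptide that fat body and gut release to the brain, measured 377, 461, 323, 464 and 219 CPM in w+ females 1 to 5 and 244, 148, 255.5, 212 and 106 CPM in w- females 1 to 5 (log2 fold change -0.96, standard error 0.19, edgeR adjusted p = 0.041). *AstA* (log2 fold change -0.29, edgeR adjusted p = 0.022), *Capa* (log2 fold change -0.23, edgeR adjusted p = 0.018) and *Tk* (log2 fold change -0.26, edgeR adjusted p = 0.035) changed less, and *Proc*, which encodes proctolin, rose (log2 fold change 0.33, edgeR adjusted p = 0.024). In these last 4 genes the groups did not overlap. When the 3 libraries were left out edgeR called none of the list, with 10 lower and 4 higher at an unadjusted p under 0.05.

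The clock genes carried a pattern of their own. *period* (*per*), whose protein closes the feedback loop of the clock, measured 32.2, 38.2, 48.8, 83.5 and 99.4 CPM in w+ females 1 to 5 and 43.4, 53.3, 65.9, 122 and 147 CPM in w- females 1 to 5. The groups overlapped widely, yet the w- library was higher in each of the 5 replicate numbers, with ratios of 1.34, 1.4, 1.35, 1.47 and 1.48 (log2 fold change 0.49, standard error 0.035, edgeR adjusted p = 0.0015). *per* lies beside *w* on the X chromosome, at -0.104 Mb. Its partner *timeless* (*tim*) measured 103, 130.1, 179, 253 and 354 CPM in w+ females 1 to 5 and 111, 140.2, 166, 305 and 441 CPM in w- females 1 to 5, with ratios of 1.07, 1.08, 0.93, 1.21 and 1.25, and was not called (log2 fold change 0.14, edgeR adjusted p = 0.2). *per*, *tim*, *vri*, *Clk*, *Pdp1* and *dco* each ranked the 5 numbers in the same order in w+ and w- libraries, that is 6 of 15 clock genes (40%) beside 217 of 10762 genes tested (2.02%). In males the count was 2 of 15 (13.3%), *per* and *tim*, beside 114 of 11187 genes (1.02%). With no block *per* was not called (edgeR adjusted p = 0.48). Of the other clock genes *Pdfr*, the receptor of the clock peptide PDF, fell from 104 ± 13.4 to 72.4 ± 5.09 CPM (log2 fold change -0.52, standard error 0.08, edgeR adjusted p = 0.022). Like *per*, *Pdfr* lies near *w*, at -0.228 Mb. The phosphatase subunit *tws* rose (log2 fold change 0.27, edgeR adjusted p = 0.029). The median of the list was -0.00064, and 0.14 with library size alone. In the other 7 libraries edgeR called no clock gene, with 1 higher and 1 lower at an unadjusted p under 0.05. *per* then had a log2 fold change of 0.97 and *Pdfr* of -0.45 (edgeR adjusted p = 0.36 and 0.06).

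**Figure D4:**
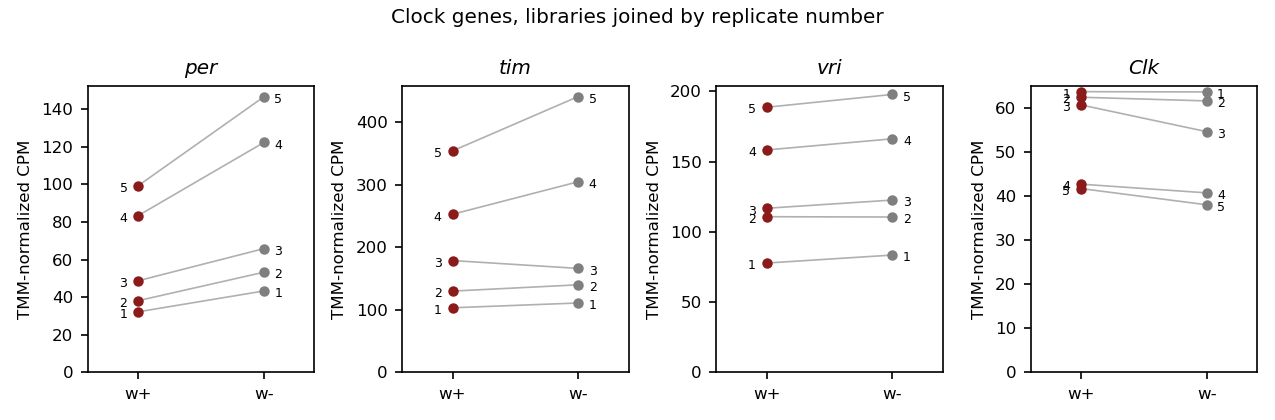
Normalized counts (CPM) of *per*, *tim*, *vri* and *Clk* in w+ (red) and w- (gray) female heads, with lines that join libraries of the same replicate number. The numbers keep 1 order in both groups for each gene, and *per* is higher in w- females at all 5 numbers, by ratios of 1.34 to 1.48.

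Of 18 antimicrobial peptide genes none was called by edgeR or DESeq2 and none had an unadjusted p under 0.05. *AttC* measured 155.6, 63.5, 86.4, 1538 and 30.1 CPM in w+ females 1 to 5 and 66.8, 17.1, 61.7, 47.7 and 29.6 CPM in w- females 1 to 5 (log2 fold change -1.56, edgeR adjusted p = 0.29). The highest value came from w+ females 4, a library that stood apart. Of 9 Bomanin genes, which encode short peptides against bacteria and fungi, all were below 0 (median -0.49) and *BomT2* was called (log2 fold change -0.76, edgeR adjusted p = 0.037). Of 9 peptidoglycan recognition proteins *PGRP-SA*, a sensor of the Toll pathway, fell (log2 fold change -0.62, edgeR adjusted p = 0.023) and *PGRP-LA* rose (log2 fold change 0.25, edgeR adjusted p = 0.0475). None of these 3 genes was called without the 3 libraries.

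Of 75 cytochrome P450 genes 13 fell and 3 rose (median -0.061, and 0.079 with library size alone). The largest fall was in *Cyp4d1*, at 7.42, 11.4, 5.51, 10.8 and 2.98 CPM in w+ females 1 to 5 and 0.353, 0.4, 0.425, 0.5 and 0.297 CPM in w- females 1 to 5. No w- library reached 1 CPM (log2 fold change -4.19, standard error 0.21, edgeR adjusted p = 6.2e-04). *Cyp4d1* and its neighbour *Cyp4d14* (log2 fold change -1.17, edgeR adjusted p = 0.03) lie at -0.63 and -0.62 Mb from *w*, and *Cyp309a2* on chromosome 2L (log2 fold change -1.61, edgeR adjusted p = 0.012) and *Cyp9c1* on 2R (log2 fold change -0.64, edgeR adjusted p = 0.03) fell as well. *Cyp4d1*, *Cyp4d14* and *Cyp9c1* were also called without the 3 libraries. Of 32 glutathione S-transferases 2 fell and 0 rose (6.25% called beside 9.23% of all genes, median 0.055). Of 26 UDP-glycosyltransferases none was called by edgeR (median 0.071) and 3 were called lower by DESeq2. In that list 9 had an unadjusted p under 0.05, beside 3455 of all 10762 genes. Of 19 antioxidant genes 2 fell (10.5%, near the share of all genes). These were *Gclm*, a subunit of the glutathione-making ligase (log2 fold change -0.70, edgeR adjusted p = 0.041), and *Prx2* (log2 fold change -0.20, edgeR adjusted p = 0.041). Heat shock proteins (2 higher and 2 lower of 20, 20% called) and the proteasome (2 lower of 32, 6.25% called) had medians of -0.036 and -0.062, which like that of the antioxidant genes were above 0 with library size alone (0.10, 0.078 and 0.075).

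Called genes were denser on the X chromosome near *w*. Of 275 genes tested from -3 to 0.5 Mb of *w*, which was left out, 70 were called (25.5%), 25 higher and 45 lower, beside 139 of 1501 on the rest of the X (9.26%) and 779 of 8954 on the autosomes (8.70%). The borders of this stretch were set after the values were seen. In steps of 1 Mb from the left the shares were 13.6%, 27.4% and 30.4% up to *w*, then 15.2% in the first Mb to its right and 3.17% in the next. From 2 to 4 Mb to the right of *w* the share was 11.1%, and from 4 to 21 Mb it was 9.3%. Without the 3 libraries 25 of 273 genes of the stretch were called (9.16%), beside 18 of 1476 on the rest of the X (1.22%) and 77 of 8842 on the autosomes (0.871%). An effect of *w* on these genes and an effect of Harwich DNA around *w* cannot be told apart.

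**Figure D5:**
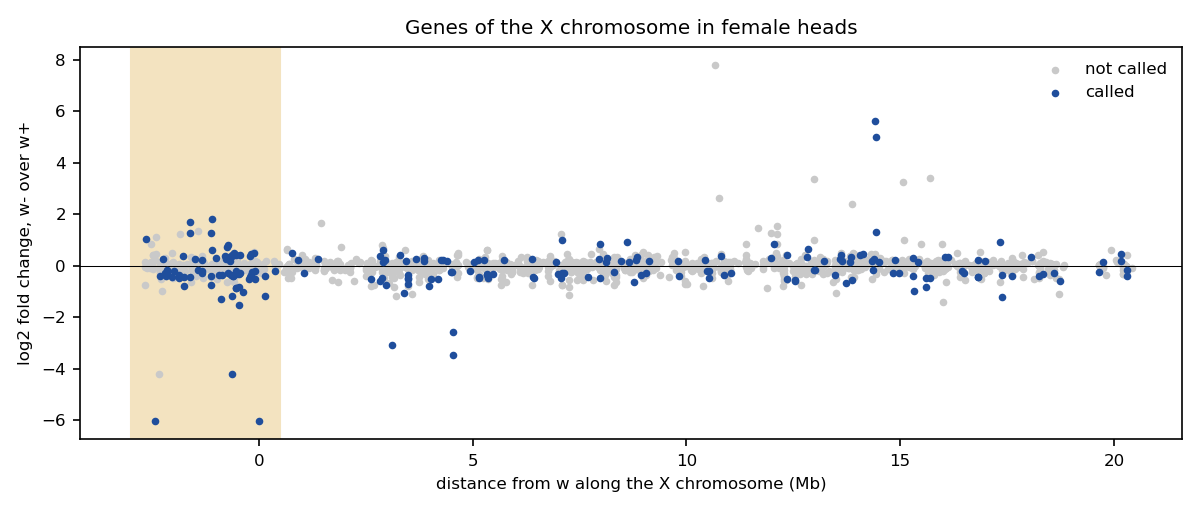
Log2 fold change (w- over w+ females) of each gene tested on the X chromosome against its distance from *w* in Mb, called genes in blue and genes not called in gray. In the shaded stretch from -3 to 0.5 Mb 25.5% of the genes are called, against 9.26% on the rest of the chromosome.

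Genes of this stretch moved in both directions, also side by side. *hfw* measured 52.7, 49.6, 48.1, 53.5 and 41.8 CPM in w+ females 1 to 5 and 29.6, 27.9, 29, 31.2 and 27.1 CPM in w- females 1 to 5 (log2 fold change -0.76, standard error 0.04, edgeR adjusted p = 6.2e-04). The groups were well apart, and *CG3740*, 0.273 kb from it, rose from 4.04 ± 0.582 to 9.8 ± 0.312 CPM (log2 fold change 1.29, standard error 0.084, edgeR adjusted p = 9.1e-04). *gt*, a gap gene of the embryo that encodes a transcription factor, fell from 11.2 ± 1.47 to 5.63 ± 0.825 CPM (log2 fold change -0.9986, standard error 0.057, edgeR adjusted p = 6.9e-04), and *CG32801* (log2 fold change -1.27, edgeR adjusted p = 8.3e-04), *CG14050* (log2 fold change -1.53, edgeR adjusted p = 0.0024) and *CG3603* (log2 fold change -1.19, edgeR adjusted p = 0.0042) fell with it. The pseudogene *CR14798* rose (log2 fold change 1.81, edgeR adjusted p = 8.8e-04). All 7 were also called without the 3 libraries. The noncoding RNA gene *lncRNA:yar*, at -2.43 Mb from *w*, had 106 counts over the 5 w+ libraries, 18 to 25 in each, and 1 count over the 5 w- libraries (edgeR adjusted p = 0.0034).

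Elsewhere several of the largest changes lay in neighbouring genes. On chromosome 2L *lncRNA:CR45456*, *lncRNA:CR45457*, *CG17005* and *Cks30A*, which encodes a subunit of cyclin-dependent kinases, follow each other on the plus strand with gaps of 0.318, 0.191 and 0.431 kb, and had log2 fold changes of 2.39, 2.28, 2.11 and 2.19. *CG17005* was the most abundant of them, at 11.8, 13, 17.1, 11.7 and 23.2 CPM in w+ females 1 to 5 and 38.7, 59.4, 74, 65.7 and 94.7 CPM in w- females 1 to 5 (log2 fold change 2.11, standard error 0.11, edgeR adjusted p = 6.9e-04). All 4 rose in each pair without overlap and were called without the 3 libraries. *CG42711* (log2 fold change 1.82, edgeR adjusted p = 0.039) lies between *Vajk1* and *Vajk2* on 2L, 1.20 kb from *Vajk2*, whose log2 fold change was 0.45 (edgeR adjusted p = 0.075). On 3R *CG9616* (log2 fold change -2.12, edgeR adjusted p = 0.017) and *CG43179* (log2 fold change -2.50, edgeR adjusted p = 0.02), 10.6 kb apart, both fell. *CG12995* and *CG12998*, 8.67 kb apart on the X and 14.4 Mb from *w*, had 1 and 3 counts over the 5 w+ libraries and 79 and 110 over the 5 w- libraries. Among the other large changes *CG13022* rose (log2 fold change 1.59, edgeR adjusted p = 0.0025) and *CG31380* fell (log2 fold change -1.33, edgeR adjusted p = 0.03). The most abundant genes that rose included *Cam*, which encodes calmodulin, at 3602, 3636, 3538, 3612 and 4297 CPM in w+ females 1 to 5 and 4207, 4342, 4742, 4792 and 5239 CPM in w- females 1 to 5 (log2 fold change 0.32, standard error 0.068, edgeR adjusted p = 0.04), and *mei-P26*, of the TRIM-NHL regulators of translation (log2 fold change 0.25, edgeR adjusted p = 0.044).

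On the X chromosome beyond the stretch around *w*, *Acsf3*, of the acyl-CoA synthetases, and *CBP*, a calcium-binding protein, lie 6.10 kb apart and fell from 7.67 ± 3.63 to 0.732 ± 0.623 CPM (log2 fold change -3.47, standard error 0.59, edgeR adjusted p = 0.032) and from 21.2 ± 5.87 to 3.58 ± 0.911 CPM (log2 fold change -2.55, standard error 0.24, edgeR adjusted p = 0.0079). *CG4020*, a fatty acyl-CoA reductase 3.11 Mb from *w*, measured 17, 29.8, 31.3, 15.2 and 14 CPM in w+ females 1 to 5 and 3.18, 2.07, 2.28, 2.28 and 2.46 CPM in w- females 1 to 5. The w- libraries were nearly level while the w+ libraries spread more (log2 fold change -3.05, standard error 0.28, edgeR adjusted p = 0.0072). All 3 were called without the 3 libraries too. Of 621 long noncoding RNAs 11 rose and 16 fell (median -0.037, and 0.10 with library size alone), and noncoding RNA genes as a biotype were called in 4.40% of 637 against 9.57% of 10029 protein-coding genes.

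Male heads, fitted alone with their own controls, are given beside the female values. Of 989 genes called in females and tested in males, 962 had the same sign in males, 568 were also called there, in the same direction, and none was called in the opposite direction by edgeR. In males 1421 of 11187 genes were called (12.7%). *Vajk4*, *Cpr49Ag*, *Pu* and *Arc1* had male log2 fold changes of 1.90, 1.41, 0.76 and 1.47. The male medians were -0.28 for cytosolic ribosomal proteins, -0.39 for fatty acid breakdown, 0.12 for junctions and 0.031 for muscle, beside -0.48, -0.39, 0.21 and 0.26 in females. The difference between the sexes was tested by an interaction term over all 20 samples, in which 3 of 11423 genes were called (0.0263%) and 689 had an unadjusted p under 0.05. No member of the muscle, junction or ribosomal lists was among the 3. They are *FarO*, a fatty acyl-CoA reductase of oenocytes that lies at -0.591 Mb from *w*, with a log2 fold change of -0.44 in females and -1.78 in males, *APC7*, of the anaphase-promoting complex, with -0.20 and -2.38, and *CG4020*, with -3.05 and -6.28. In females *FarO* and *APC7* were not called, and the male value was the lower in all 3.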

How the data were processed

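RNA from pools of 10 heads was made into Kapa mRNA HyperPrep libraries and sequenced. The authors trimmed reads with Trim Galore 0.6.1, aligned them with STAR 2.5.4b to a release of the *Drosophila melanogaster* genome, and deposited the reverse-strand STAR counts per gene, which are raw counts without normalization. Because STAR counts only uniquely placed reads, levels of near-identical genes can be too low.

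Samples were grouped by eye color and sex as labelled. Only the 10 female libraries entered the main test. Genes needed 10 or more counts in 3 or more of them to be kept. Counts were scaled by TMM and tested with edgeR 4.0.16 in R 4.3.3 (quasi-likelihood, robust, replicate number as block), with Benjamini-Hochberg adjustment over 10762 genes and a threshold of 0.05. CPM values use the TMM-scaled library size. Principal components were taken from log2 CPM with a prior count of 2. Gene positions come from BDGP6.54 (Ensembl), by gene ID. A count of 3 was taken as the detection floor, and it covers counting error only.

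The genes named were, by rule, the called genes that changed most, 10 in each direction (mean of at least 1 CPM, same direction in all 5 pairs), the 5 with the smallest p and the 5 most abundant in each direction, up to 4 called and 4 abundant members of each gene list, the genes whose effect differed between the sexes, *w* and the tissue markers. Outside this rule, *Arc2*, *CG12995*, *CG12998*, *CG3603*, *CG3740*, *CPT2*, *Clk*, *Cpr49Af*, *Cyp4d14*, *Cyp9c1*, *Dg*, *Etfb*, *Fas2*, *Ilp2*, *Ilp5*, *Ilp6*, *Muc68D*, *PPO2*, *Prm*, *Tk*, *b*, *bw*, *dco*, *e*, *kar*, *mt:ATPase6*, *pn*, *pr*, *st*, *t*, *v*, *vkg* and *vri* were chosen after their values were seen. The comparison, the gene lists and the tests were chosen with earlier results of these data known, and leaving out 3 libraries was added after the data were seen. Gene lists are described by counts and medians and were not tested as sets. Alternatives were DESeq2 1.42.0, no block, other scalings, other filters, all 20 samples in one fit, and each replicate or library left out. The steps were tested on simulated counts.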

Additional observations from a re-analysis of the deposited data

Results flagged for a closer look

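Of 356 groups of 5 libraries examined for a library far from the other 4 (Dixon's test), 19 were picked out, where chance alone gives about 5%. Among w+ females the highest library was far from the rest for *Acsf3* (14.1 CPM in w+ females 2), *CG13071* (1.46 CPM in w+ females 2), *AttC* (1538 CPM in w+ females 4), *eIF3k* (92.4 CPM in w+ females 4), *Cam* (4297 CPM in w+ females 5), *mei-P26* (1241 CPM in w+ females 5), *Cpr62Bb* (20.8 CPM in w+ females 5) and *TwdlG* (19.8 CPM in w+ females 5). Among w- females the highest library stood out for *CG43179* (0.848 CPM in w- females 1), *Cyp309a2* (1.15 CPM in w- females 4), *lncRNA:yar* (0.025 CPM, the single count, in w- females 4) and *crb* (161 CPM in w- females 5). The lowest library stood out for *PGRP-LA* (53.9 CPM in w- females 3), *CG32801* (1.15 CPM in w- females 4) and *eIF3k* (60.6 CPM in w- females 5).

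Of the summed lists, the antimicrobial peptides reached 5168 CPM and the glial markers 4200 CPM in w+ females 4, and the Bomanins reached 2611 CPM in w+ females 3 and 1168 CPM in w- females 4.

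The effect of eye color differed between females and males for 3 genes by an interaction term in edgeR. The female minus the male log2 fold change was 1.34 for *FarO*, 3.21 for *CG4020* and 2.18 for *APC7*. With replicate 1 or replicate 2 left out, edgeR called no gene, with 537 and 591 at an unadjusted p under 0.05, and DESeq2 called 18 with all samples.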

How the results depend on the processing

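The number of called genes depended on the setting more than the directions did. Against 993 (508 higher, 485 lower), 1715 were called with DESeq2 (793 higher, 922 lower, 945 of the 993 among them), 2215 with library size alone (1840 higher), 2068 with all 20 samples in one fit (911 higher, 1157 lower), and 79 with an absolute log2 fold change of at least 1 also asked for (47 higher, 32 lower). Library size alone moved the median of all genes to 0.136, and 83.1% of its calls were higher against 51.2%. With DESeq2's size factors, all genes with a count, or at least 10 counts in every sample, 1014, 785 and 1107 were called. Leaving out 1 replicate number or 1 library gave 82 to 2348 called genes, 57 to 1041 higher and 25 to 1307 lower. The counts were 112, 240, 618, 82 and 1121 without replicates 1 to 5. With no block and 1 library left out they were lowest without w- females 2 (237) and highest without w+ females 5 (2348), and they were 240, 262, 480 and 354 without w+ females 1 to 4 and 312, 383, 496 and 253 without w- females 1, 3, 4 and 5. Without the 3 libraries that stood apart 122 were called (90 higher, 32 lower). Of the 993 genes 1 changed direction with library size alone, and none did in any other setting in which it could be fitted. All these settings reuse libraries that picked the genes, so a kept direction is not an independent check. For the difference between the sexes DESeq2 called 18 genes against 3, and leaving out replicates gave 0 to 5.

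The replicate number is a block by design of the comparison, and the labels do not say what it stands for. Deviations of same-numbered w+ and w- libraries correlated at -0.181, 0.156, -0.372, -0.437 and 0.252. The 3 libraries that stood apart, w+ females 4 and w- females 1 and 3, enter these values under different numbers. The correlations therefore cannot say whether the numbers mark pairs. In 6 of 15 clock genes the numbers ranked alike in both groups, and what same-numbered libraries share was not tested. With no replicate block 659 genes were called, 372 higher and 287 lower, of which 550 were among the 993, and 3 genes for the difference between the sexes. Of the named genes 25 lost their call without the block, among them *per* (edgeR adjusted p = 0.48), *Ilp3* (0.088), *kuz* (0.058) and *PGRP-SA* (0.054).

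With library size alone the median was above 0 for mitochondrial ribosomal proteins (0.037), the tricarboxylic acid cycle (0.13), fatty acid synthesis (0.025), photoreceptor genes (0.13), eye pigment genes (0.071), clock genes (0.14), neuropeptides (0.085), odorant-binding proteins (0.14), heat shock proteins (0.10), the proteasome (0.078), cytochrome P450 (0.079), antioxidant enzymes (0.075) and long noncoding RNAs (0.10). Lists with no called member, such as the nuclear genes of the respiratory chain, are not given here. Lists whose median moved by less than its SD over the replicate pairs are left out too. The clock median was 0.049 without the 3 libraries, the activity-regulated median ranged from -0.049 to 0.086 and the log2 fold change of *tim* from -0.17 to 0.49 with 1 replicate number or library left out. Among the other named genes none changed sign. Their adjusted p rose past the threshold in 803 and fell under it in 59 of the combinations of gene and setting. Genes at a few counts per library are limited by depth.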
